A study of Mus musculus with 4 samples.

Results

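The genes described here mark eosinophils, the granulocytes that enter the lung in allergic asthma. The set was 8 genes of 31131 named in the data: Prg2, Prg3, Epx, Ear1, Ear2, Ear6, Il5ra and Cebpe. They were found by gene name among the non-control probes of a mouse Agilent array, and each had 1 probe of 60 bases on 1 spot. The labels describe whole lung from Pla2g3+/+ mice (wild type) and Pla2g3-/- mice, which lack group III phospholipase A2, a secreted lipid-cleaving enzyme. Each genotype was given as control and 48 h after the last antigen challenge, so there were 4 groups with 1 array each, of RNA pooled from 4 samples. The protocol was sensitisation with 10 µg ovalbumin and 1.3 mg alum on days 0 and 14, then inhaled 1% ovalbumin for 30 min on days 26, 27 and 28. It is attached to all 4 groups, so the treatment of the controls is left unstated, as are strain, sex and age.

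Mature eosinophils store major basic protein (Prg2), its homologue (Prg3) and eosinophil peroxidase (Epx) in their granules, beside small ribonucleases of the eosinophil-associated ribonuclease (Ear) family. Interleukin-5 drives their production and survival through a receptor whose specific chain is Il5ra, and Cebpe is a transcription factor needed for terminal granulocyte differentiation. Much of the granule mRNA is made in the marrow before the cell reaches tissue, and several of these genes are also used by other cells: Ear1 and Ear2 by alveolar macrophages, Il5ra by some B cells, Cebpe by neutrophil precursors.

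The Ear probes come first because their sequences overlap. The Ear1 probe lies at chr14:44396709-44396768 and the Ear2 probe at chr14:44396451-44396510, both on the minus strand of mm9, with 198 bases between them. The files list the Ear2 probe for transcripts of both Ear1 and Ear2. The Ear1, Ear7 and Ear12 probes share a run of 17 bases, in capitals below, which only these 3 of 39429 probes hold.
Ear1: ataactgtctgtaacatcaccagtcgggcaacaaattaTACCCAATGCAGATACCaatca
Ear7: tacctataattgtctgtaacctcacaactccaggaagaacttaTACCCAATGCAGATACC
Ear12: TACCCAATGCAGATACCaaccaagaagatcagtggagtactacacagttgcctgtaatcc
Aligned without gaps, the Ear1 and Ear7 probes had 46 identical bases over an overlap of 55.

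The Ear2 and Ear6 probes share a run of 23 bases, in capitals in the 30-base windows below, which no other probe holds. The windows are bases 31 to 60 of the Ear2 probe and 20 to 49 of the Ear6 probe.
Ear2: taattttGCTGAATAGATCTTTTCTAATTA
Ear6: tcaGCTGAATAGATCTTTTCTAATTAataa
The Ear6 probe lies at chr14:52474253-52474312 on the plus strand. These 2 probes had 40 identical bases over an ungapped overlap of 45, so a value named for one Ear gene may hold signal from its relatives, and such cross-hybridisation was not tested.

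The granule protein probes share no run above 8 bases with any other member. The Prg2 probe lies at chr2:84822799-84822858 (plus strand) and the Epx probe at chr11:87678288-87678347 (minus strand). The files give the Prg3 probe no position.
Prg2: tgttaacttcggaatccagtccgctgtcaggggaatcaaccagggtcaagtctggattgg
Prg3: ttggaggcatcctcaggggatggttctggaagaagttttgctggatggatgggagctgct
Epx: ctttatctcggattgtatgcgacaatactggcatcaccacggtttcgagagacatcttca
The Il5ra probe lies at chr6:106660378-106660437 and the Cebpe probe at chr14:55329200-55329259, both on the minus strand. Exon and UTR positions on mm9 were not analysed here.

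The values came from 2 sources, the scanner files and the authors' value table, and these proved to be different measurements, although the sample names are shared. Over probes, a scanner array correlated with the table column of its own name at 0.911 to 0.919 and with other columns at 0.911 to 0.917, against 0.985 or more among arrays of 1 source. Every result is therefore given per source, as log2 of the level relative to the 75th percentile of the array. Single genes are not ranked by level, but the sums given later for marker lists add linear levels of different probes. Lung markers were above background on every array of both sources. Ager, of alveolar type I cells, averaged 3.66 in the table and -4.997 in the scanner files, and Cdh5, of endothelium, 3.13 and -5.12. Scgb1a1, of airway club cells, averaged 6.80 and 7.91, and Foxj1, of ciliated cells, 1.11 and 3.50. Pla2g3 itself was higher on the arrays labelled knockout: by 4.46 (control) and 4.66 (challenged) log2 units in the table, and by 3.19 and 3.91 in the scanner files. Which part of the gene was deleted is unstated, so this probe does not check the labels, and the arrays are called WT-labelled and KO-labelled throughout.

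In the value table, 3 of the 8 genes differed 2-fold or more with challenge in the KO-labelled pair, all of them higher, where 4.62% of all genes differed so much. In the WT-labelled pair 1 of the 7 measured did, also higher, against 3.45%. The 3 were Cebpe (6.09-fold), Prg2 (6.34-fold) and Epx (5.75-fold). The Ear genes and Il5ra were 1.57-fold to 1.85-fold higher in that pair. On the scanner arrays 1 of the 6 measured members differed 2-fold or more in each pair, against 4.4% (WT-labelled) and 8.68% (KO-labelled) of all genes. It was Prg2, lower after challenge in both. With 1 array per group these differences have no replicate check, and fewer eosinophils and less mRNA per eosinophil cannot be told apart in whole tissue.

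**Figure D1:**
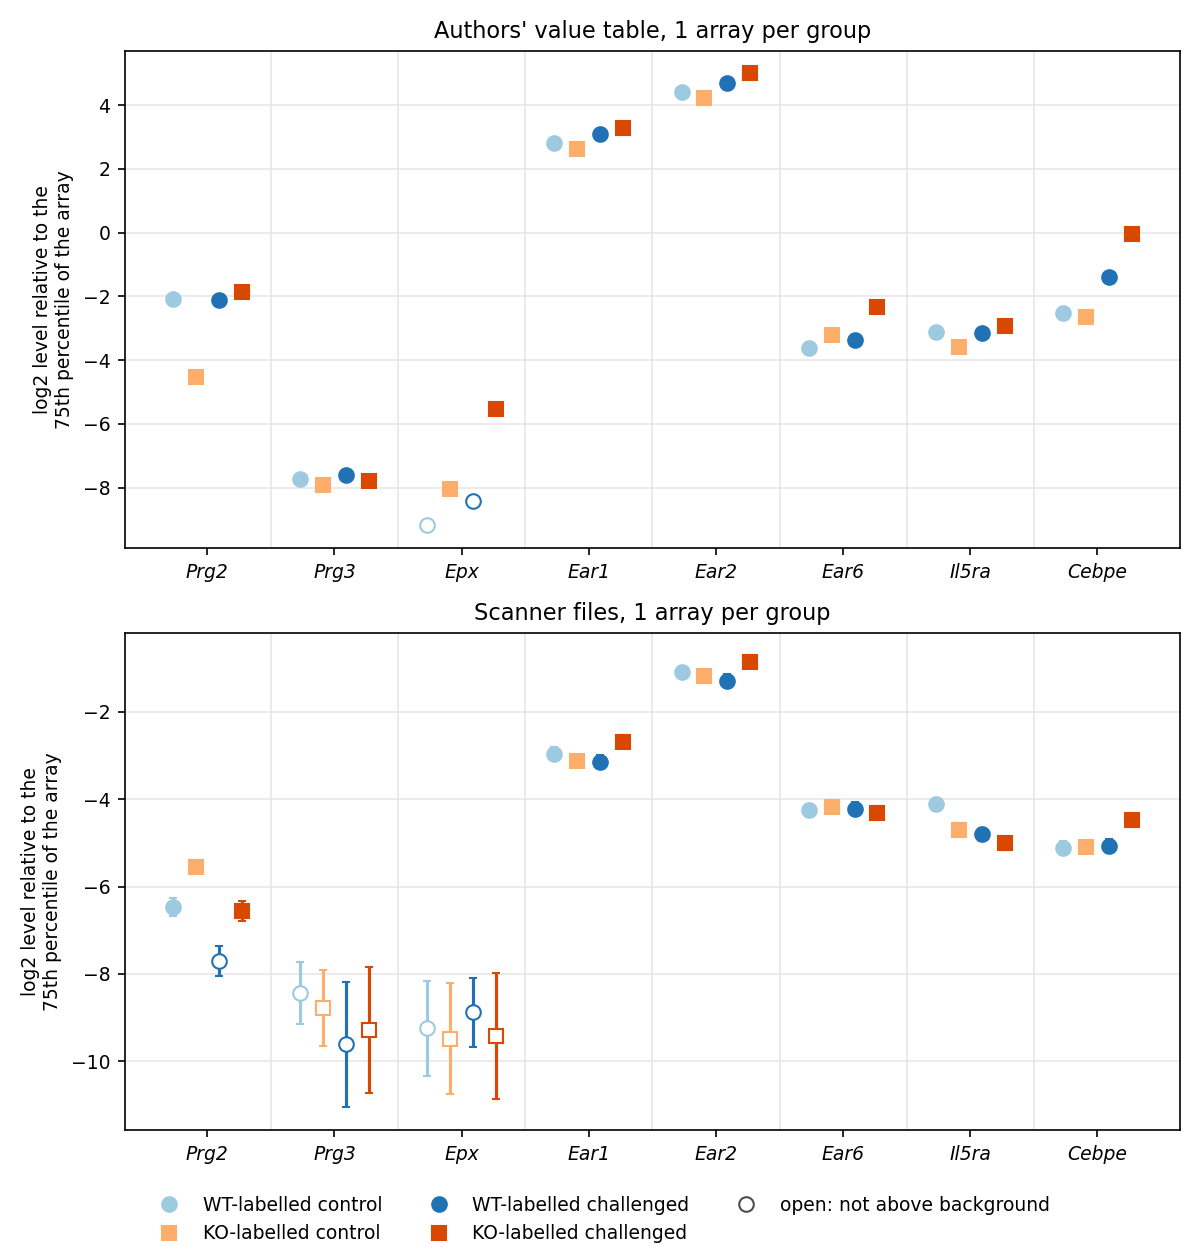
Log2 level of each of the 8 genes relative to the 75th percentile of the array (y axis), with 1 point per array and genes along the x axis; upper panel the authors' value table, lower panel the scanner files, whose bars are Agilent's spot error (1 SD) and where open points are not above background. In the table, Prg2 is low on the KO-labelled control array (-4.54) and Cebpe is highest on the KO-labelled challenged array (-0.04); Prg3 and Epx are open on all 4 scanner arrays.

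Prg2 encodes major basic protein, the crystalline core of the eosinophil granule. In the table its log2 levels were -2.09 and -4.54 on the WT-labelled and KO-labelled control arrays, and -2.10 and -1.87 on the challenged arrays of those labels. The KO-labelled control was low and the other 3 arrays lay within 0.23 log2 units. The challenge difference was thus -0.02 with WT-labelled and 2.66 with KO-labelled arrays, and the control KO-labelled array was 5.45-fold below its WT-labelled counterpart. The challenged arrays differed by 0.23.

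Prg2 in the scanner files went another way. Its levels were -6.46 (WT-labelled control), -5.55 (KO-labelled control), -7.70 (WT-labelled challenged, not well above background) and -6.57 (KO-labelled challenged). The KO-labelled control array was the high one here. After challenge Prg2 was at least 2.35-fold lower (WT-labelled) and 2.02-fold lower (KO-labelled), with log2 differences of -1.24 ± 0.39 and -1.01 ± 0.28. The error after ± here and below is Agilent's error for the 2 spots (1 SD), which covers neither animals nor labelling. The KO-labelled array was higher than the WT-labelled one by 0.91 ± 0.26 in the controls and by at least 2.19-fold after challenge. These spots were dim, with deposited intensities of 8.12 to 36.9 against negative control medians of 1.90 to 2.62. Corrected with normexp and quantile-normalised, the challenge differences shrank to -0.29 and -0.34.

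Prg3 encodes a second form of the major basic protein of eosinophils. In the table its deposited values were 0.00476 and 0.00417 on the WT-labelled and KO-labelled controls and 0.00510 and 0.00448 on the challenged arrays, with background limits of 0.00291 to 0.00380. It was just above background on all 4 arrays, and its challenge differences were 0.10 and 0.11. On the scanner arrays it was not well above background on any of the 4, so no fold is given.

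Epx encodes the peroxidase of the eosinophil granule matrix, a marker of the lineage. In the table it was at background on both WT-labelled arrays (0.00172 control, 0.00293 challenged), just above it on the KO-labelled control (0.00378, limit 0.00316) and clearly above it on the KO-labelled challenged array (0.0218, limit 0.00380). That array stood apart from the other 3. Challenge made a difference of 2.52 log2 units in the KO-labelled pair, and the KO-labelled challenged array was at least 7.34-fold above the WT-labelled one. Epx in the scanner files was not well above background on any of the 4.

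Cebpe gave a graded order in the table: -2.64 on the KO-labelled control, -2.51 on the WT-labelled control, -1.39 on the WT-labelled challenged and -0.04 on the KO-labelled challenged array. The controls differed by 0.13, and both challenged arrays lay above both controls. Cebpe was 2.17-fold (WT-labelled) and 6.09-fold (KO-labelled) higher after challenge, and 2.56-fold higher on the KO-labelled than the WT-labelled challenged array. Its scanner levels lay between -5.12 and -5.07 on 3 arrays and at -4.48 on the KO-labelled challenged one. Its challenge differences there were 0.05 ± 0.23 and 0.62 ± 0.23, so the KO-labelled challenged array was also the highest, by a smaller step.

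Il5ra encodes the interleukin-5 binding chain of the receptor. In the table its levels were -3.11 and -3.60 on the controls (WT-labelled, KO-labelled) and -3.16 and -2.93 on the challenged arrays. Challenge differences were -0.05 and 0.67. The scanner order was WT-labelled control (-4.12), KO-labelled control (-4.70), WT-labelled challenged (-4.81) and KO-labelled challenged (-5.004). The last 3 lay within 0.30, close to the spot error, and the WT-labelled control lay above them. The challenge differences were -0.69 ± 0.21 and -0.30 ± 0.22, opposite in sign to the KO-labelled pair of the table.

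**Figure D2:**
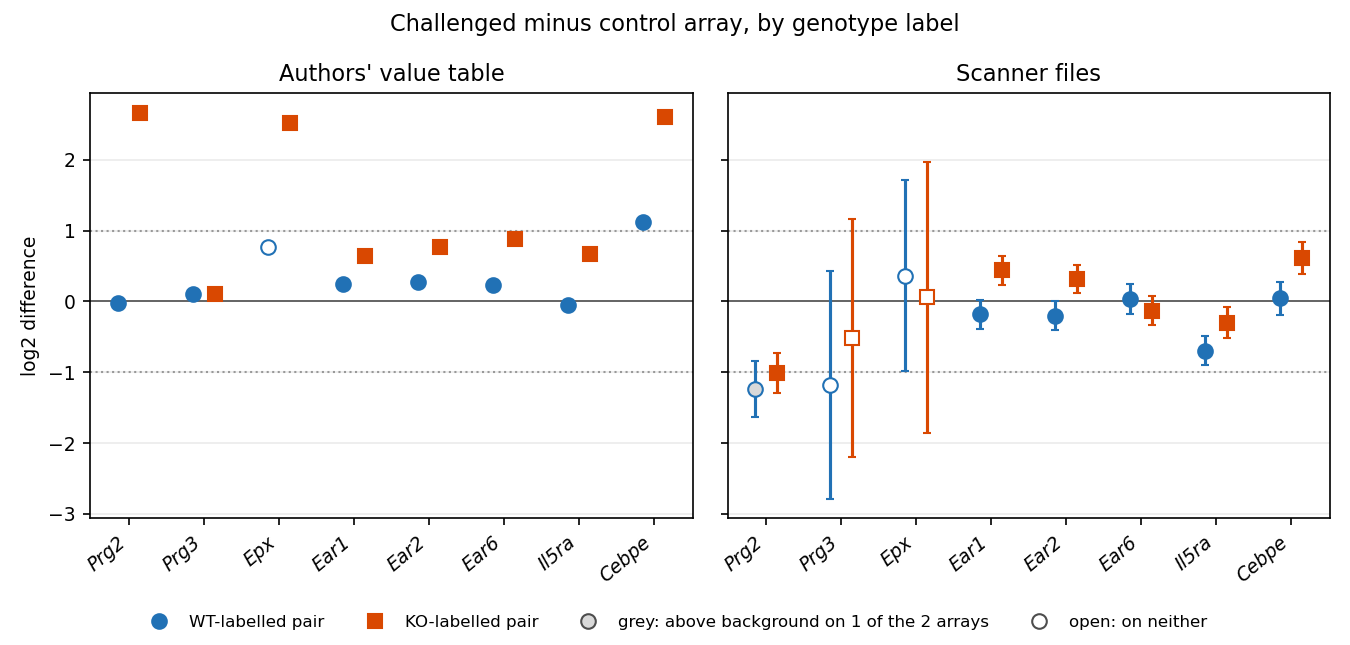
Challenged minus control log2 difference for each gene (y axis), circles for the WT-labelled and squares for the KO-labelled pair; left the authors' value table, right the scanner files with Agilent's error of the 2 spots (1 SD), dotted lines at a 2-fold difference. Grey points had 1 of the 2 arrays above background and open points neither. In the table Prg2, Epx and Cebpe stand above the upper line in the KO-labelled pair; in the scanner files the measured member past a line is Prg2, below 0.

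The ribonucleases Ear1 and Ear2 followed one another in both sources. In the table, whose linear values are multiples of the 75th percentile, Ear1 lay at 7.10 and 6.22 on the WT-labelled and KO-labelled controls and at 8.47 and 9.75 on the challenged arrays. Ear2 lay at 21.4, 18.8, 25.9 and 32.0 on those arrays in that order. Both challenged arrays exceeded both controls for each gene. The log2 challenge differences were 0.25 (Ear1) and 0.28 (Ear2) with WT-labelled arrays, and 0.65 and 0.76 with KO-labelled arrays.

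On the scanner arrays Ear1 lay at log2 levels of -2.97, -3.13, -3.15 and -2.69 and Ear2 at -1.09, -1.18, -1.29 and -0.86, in the order WT-labelled control, KO-labelled control, WT-labelled challenged, KO-labelled challenged. The first 3 arrays lay within about 1 spot error of each other for both genes and the KO-labelled challenged array was the highest. Challenge differences were -0.18 ± 0.20 and -0.20 ± 0.20 (WT-labelled), and 0.44 ± 0.20 and 0.32 ± 0.20 (KO-labelled), Ear1 first. The WT-labelled sign thus differed between sources.

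Ear6, whose probe shares a run of 23 bases with that of Ear2, had challenge differences near those of Ear2 in the table, 0.23 with WT-labelled and 0.89 with KO-labelled arrays. The genes parted by genotype label. In the table its levels were -3.61, -3.22, -3.38 and -2.33 on the WT-labelled control, KO-labelled control, WT-labelled challenged and KO-labelled challenged arrays. The KO-labelled array was higher in both treatments, by 0.40 in the controls and 2.08-fold after challenge, while Ear1 and Ear2 were lower by 0.19 and 0.18 on the KO-labelled control. Scanner levels of Ear6 spanned -4.31 to -4.18, and its 4 differences ran from -0.13 to 0.08, each within the spot error.

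Of the 9 other Ear and RNase A family genes on the array, Ear10, Ear12 and Rnase2a had the same order of arrays as Ear1 and Ear2 in the table; these 5 were picked after their values were seen. The Ear10 and Ear12 probes share a run of 23 bases, with 42 identical over an ungapped overlap of 48. The Ear1 and Ear12 probes share 19. Such probes may hold signal from one another, which was not tested. Challenge differences of the 5 genes were 0.25 to 0.68 (WT-labelled) and 0.65 to 1.41 (KO-labelled) in the table, and -0.25 to -0.18 and 0.11 to 0.44 in the scanner files. Rnase2a had the largest of them in the KO-labelled pair of the table. The Ear7 probe, which shares a run with Ear1, had in the table the array order of Ear6. On the scanner arrays Ear7 was above background only on the WT-labelled challenged array (-5.75), with a measured challenge difference of 1.83. Rnase2b went another way: in the table it was above background only with the WT label, where its challenge difference was 2.65. Its measured KO-labelled minus WT-labelled differences there were -2.70 (control) and -3.92 (challenged). The Ear4 probe, which shares a run of 15 bases with the Ear1 probe, was never above background in either source. After challenge, 1 of the 8 measured of these 9 was 2-fold higher with WT-labelled arrays of the table (Rnase2b), against 2.36% of all genes. With KO-labelled arrays 1 of 7 was (Rnase2a), against 3.27%. The scanner arrays gave 1 of 7 (Ear7, WT-labelled) and 0 of 6, against 2.44% and 4.54%. No challenge pair of either source had any 2-fold lower. By genotype label, 2 of 8 were 2-fold higher and 2 lower on the KO-labelled array of the table, in each treatment. Of all genes, 5.14% (control) and 5.79% (challenged) differed so much in either direction. On the scanner arrays 0 of 6 did in the controls, against 5.97%. After challenge 1 of 7 did (Ear7, lower, measured difference -2.45), against 8.16%.

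**Figure D3:**
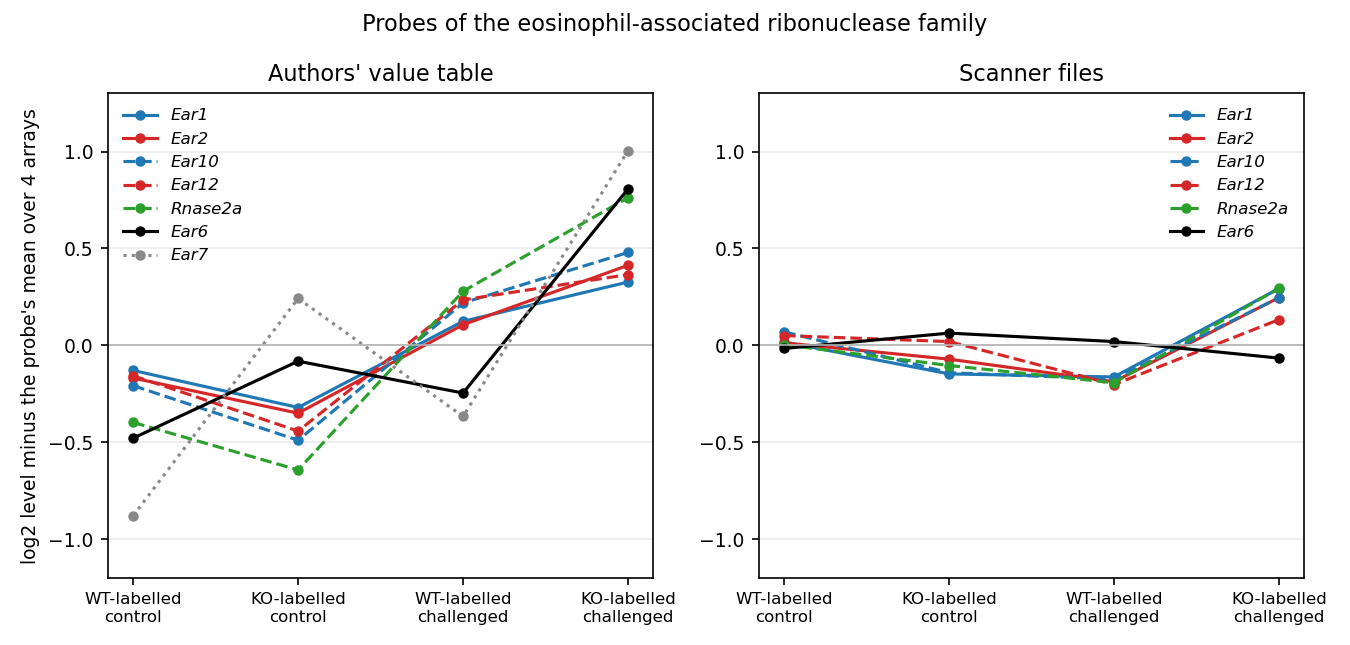
Log2 level of each Ear family probe minus its own mean over the 4 arrays (y axis), by array (x axis; lines join the 4 arrays of 1 probe and imply no order); left the authors' value table, right the scanner files, with probes above background on all 4 arrays shown. In the table Ear1, Ear2, Ear10, Ear12 and Rnase2a are lowest on the KO-labelled control, whereas Ear6 and Ear7 are lowest on the WT-labelled control; in the scanner files Ear6 is flat.

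Counts were read against all genes that cleared background in one or both of the arrays compared. The median challenge difference of the measured members in the table was 0.23 (WT-labelled) and 0.83 (KO-labelled), against 0.01 and 0.02 over all genes. Above 0 were 8 of 8 in the KO-labelled pair of the table and 5 of 7 in the WT-labelled pair, against 52.9% and 52.3% of all genes. The scanner medians were -0.19 and 0.09, against -0.01 and -0.04 over all genes, with 2 of 6 and 3 of 6 members above 0, against 48.3% and 45.3%.

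The genotype labels gave the following counts. In the table's controls 2 of 8 members differed 2-fold or more (Prg2 lower, Epx higher on the KO-labelled array), against 5.14% of all genes. The measured Epx difference was 1.14, but with the WT-labelled array at background it bounds the fold only at 1.52 or more. In its challenged arrays 3 of 8 did (Epx, Ear6 and Cebpe, all higher on the KO-labelled array), against 5.79%. On the scanner arrays 0 of 6 did in the controls, against 5.97%, and 1 of 6 (Prg2, higher) after challenge, against 8.16%. The member medians for KO-labelled minus WT-labelled were -0.19 and 0.27 in the table and -0.03 and 0.45 in the scanner files, controls first. The genotype and challenge differences share arrays and are not independent.

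**Figure D4:**
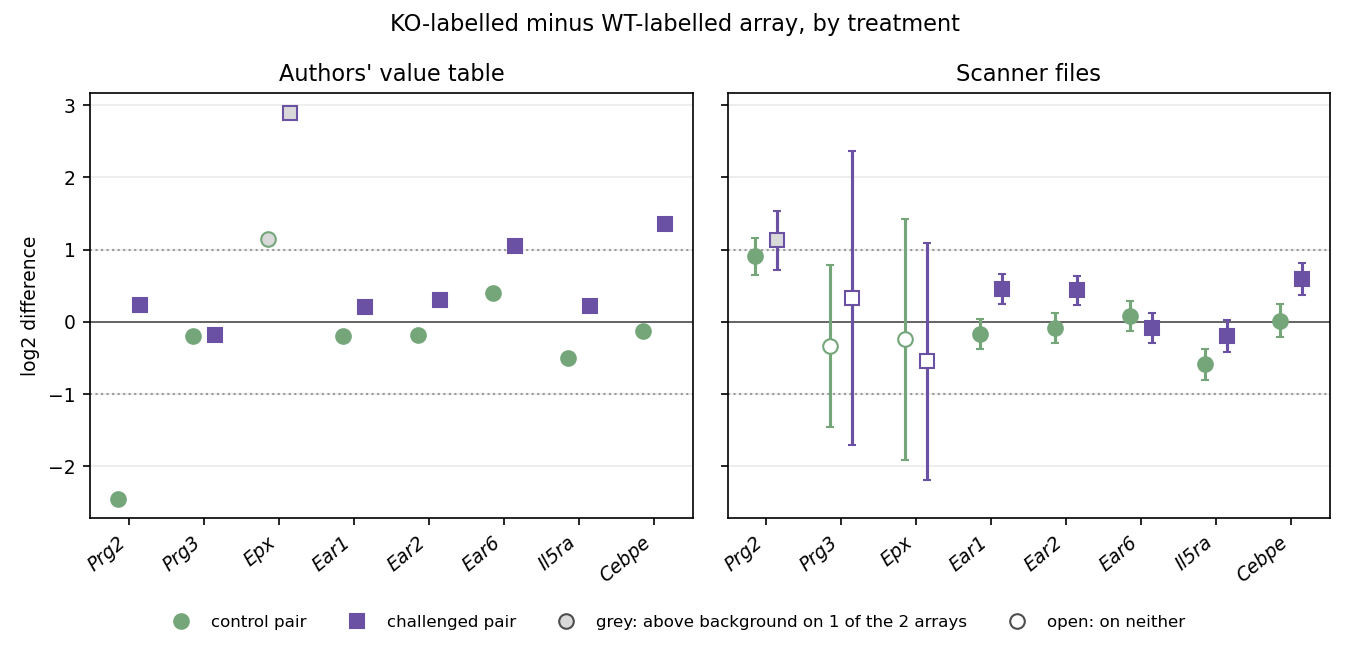
KO-labelled minus WT-labelled log2 difference for each gene (y axis), circles for the control pair and squares for the challenged pair; left the authors' value table, right the scanner files with the error of the 2 spots (1 SD), dotted lines at a 2-fold difference, grey and open points as in the challenge plot. In the table Prg2 is far below 0 in the controls (-2.45) and near 0 after challenge (0.23), while Epx, Ear6 and Cebpe lie above the upper line after challenge.

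An additive limma fit over the 4 arrays of each source averages each effect over the other factor and leaves 1 residual degree of freedom. Its SE reflects how far the genotype labels or treatments disagreed, moderated over all genes, and measures no spread between mice. No member passed an adjusted p of 0.05 in either source, and no gene of either source did. At an unadjusted p under 0.05 limma gave 1 member for each effect and source. For challenge, Cebpe passed in the table (log2 difference 1.86, SE 0.47, adjusted p = 0.566, higher in both pairs), where 8.79% of all genes did. Prg2 passed in the scanner files (-1.12, SE 0.13, adjusted p = 0.519, lower in both pairs), where 9.57% did. For genotype, Epx passed in the table (limma adjusted p = 0.359), where 13.8% of all genes did. Both WT-labelled arrays were at background for Epx, so the fit gives no size beyond the bounds of 1.52-fold and 7.34-fold above. Prg2 passed in the scanner files (1.02, adjusted p = 0.428, higher in both pairs, 10.8%). Both Prg2 fits take the WT-labelled challenged array at its measured value, which was not well above background. Over the alternative settings the limma adjusted p of Cebpe for challenge ran from 0.125 to 0.584 and that of Prg2 in the scanner files from 0.309 to 0.60.

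The genes that call eosinophils to the lung were followed as a list of 12 for growth and recruitment. For this and the lists that follow, the share of all genes 2-fold or more higher after challenge was 2.36% (WT-labelled) and 3.27% (KO-labelled) in the table and 2.44% and 4.54% on the scanner arrays. The share 2-fold or more lower was 1.09% and 1.36% in the table and 1.96% and 4.14% on the scanner arrays. After challenge, 3 of the 12 in the table were 2-fold or more higher with WT-labelled and 5 with KO-labelled arrays; on the scanner arrays 2 and 8 of 12 were, and 1 (Ccl24, WT-labelled) was lower. Ccl24 and Ccl11 encode the eotaxins, chemokines that act on the eosinophil receptor Ccr3. In the table Ccl24 differed by 3.13 and 5.17 and Ccl11 by 1.73 and 1.98, WT-labelled pair first. Scanner values of Ccl11 differed by 0.40 and 1.63, and Ccl24 by -1.34 and 1.39. Il5, the ligand of the Il5ra receptor, differed in the table by 0.42 and 1.02. On the scanner arrays it was at background in both controls and above it on both challenged arrays, at -4.82 and -2.42.

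Ccr3, the receptor itself, differed in the table by 0.24 and 1.43 and in the scanner files by -0.58 and -0.08. Gata1, the transcription factor that commits progenitors to the eosinophil line, differed by 0.18 and 1.13 in the table and by -0.20 and -0.18 in the scanner files. Of its list of 12 lineage factors, none was 2-fold higher in the table with WT-labelled arrays and 1 (Gata1) with KO-labelled arrays. The scanner arrays gave none with the WT label, and with the KO label 2 higher (Spi1 1.38, Xbp1 1.15) and 1 lower (Gfi1 -3.02). Gfi1 stood at 0.15 on the KO-labelled control there. The WT-labelled control, WT-labelled challenged and KO-labelled challenged arrays had -3.51, -3.72 and -2.87. The Gfi1 difference thus rests on the KO-labelled control array. Siglecf, on the surface of eosinophils and of alveolar macrophages, differed by -0.35 and -0.30 in the table and 0.07 and 0.99 in the scanner files. Of 14 other genes of mature eosinophils, 2 were 2-fold higher in the table with WT-labelled arrays and 3 with KO-labelled arrays. They were Alox15, the 15-lipoxygenase (1.54 and 3.13), Serpinb2 (2.13 and 2.19) and, with the KO label, F5 (1.07). The list as a whole had 7 of 14 genes above 0 with WT-labelled arrays (median 0.03) and 11 of 14 with KO-labelled arrays (median 0.25). Scanner values of Alox15 were 0.44 and 0.89 and of Serpinb2 -0.06 and 0.52. There the list had 1 gene 2-fold lower with the WT label (Itga4 -1.04) and 2 higher with the KO label (Pirb 1.41 and Ccr1, at background in the control).

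**Figure D5:**
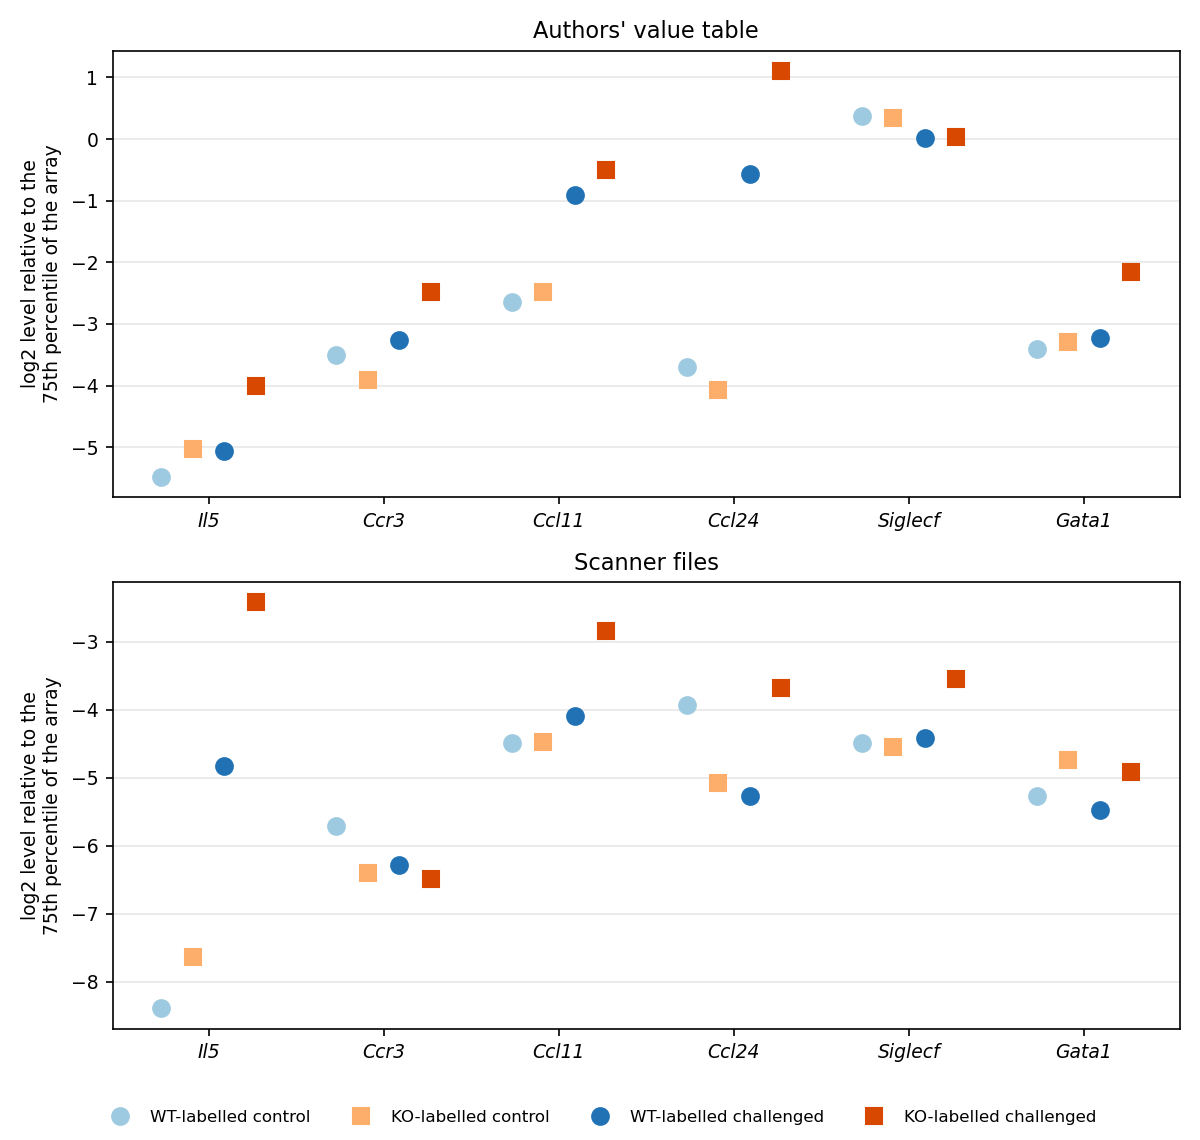
Log2 level relative to the 75th percentile of the array (y axis) of 6 genes of eosinophil growth, recruitment and lineage, with 1 point per array; upper panel the authors' value table, lower panel the scanner files. In the table both challenged arrays lie above both controls for Ccl11 and Ccl24, and Ccr3 and Gata1 are highest on the KO-labelled challenged array; in the scanner files Il5 is above background only on the challenged arrays.

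Other cells also use some of these genes, and their markers are given by median challenge difference, WT-labelled pair first. Summed linear levels follow in the order WT-labelled control, KO-labelled control, WT-labelled challenged, KO-labelled challenged. A sum is weighted by its brightest probe, so it is also given without that gene. The 15 alveolar macrophage genes, which bear on Ear1 and Ear2, had medians of 0.26 and -0.15 in the table and -0.02 and 1.04 on the scanner arrays. After challenge, 8 of the 15 were 2-fold higher in the KO-labelled scanner pair and 0 in the WT-labelled one, where Marco was lower (-1.995). The table had 0 higher in either pair and Fabp1 lower in both (-1.44 and -1.496). The list summed to 40.3, 49.9, 45.5 and 47.1 in the table and to 34.8, 42.9, 38.3 and 40.1 without Cd68. Car4 was brightest on the WT-labelled control (7.68) and WT-labelled challenged (7.63) arrays there, and Marco on the KO-labelled control (8.87). Both stay in the reduced sum. The scanner sums were 19.8, 18.4, 25.6 and 34.6, and 8.94, 7.37, 7.20 and 11.8 without Plet1.

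The 9 B cell genes, which bear on Il5ra, had medians of -0.32 and -0.16 in the table and -1.34 and -0.02 on the scanner arrays. None was 2-fold lower in the table, and 5 and 1 of 9 were on the scanner arrays. They summed to 24.2, 17.8, 20.1 and 16.4 in the table (14.6, 10.3, 12.8 and 10.5 without Cd79b) and to 6.69, 5.97, 2.93 and 3.63 on the scanner arrays (4.07, 4.69, 1.90 and 2.37 without it).

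The 15 neutrophil and immature myeloid granule genes, which bear on Cebpe, had medians of 0.28 and 0.03 in the table and 0.95 and 0.45 on the scanner arrays. After challenge, 1 of the 15 was 2-fold higher in each pair of the table. On the scanner arrays 7 and 6 were higher, and Mpo was lower with the KO label (-1.10). The list summed to 108, 133, 148 and 138 in the table, and to 37.3, 49.8, 59.5 and 51.2 without Chil3. The scanner sums were 198, 216, 256 and 313, of which Ltf made up most and hardly varied. Without Ltf the other 14 summed to 9.64, 26.0, 58.7 and 131. This reduced sum was highest on the KO-labelled challenged array in the scanner files, but on the WT-labelled challenged array in the table. Cebpe was highest on the KO-labelled challenged array in both sources, and a link between the list and Cebpe was not tested.

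The 13 mast cell and basophil genes had medians of 0.13 and -0.06 in the table and 0.27 and -0.12 on the scanner arrays. After challenge, 1 and 2 of the 12 measured were 2-fold higher in the table. They were Mcpt2 in both pairs (1.77 and 1.56) and Mcpt1 with the KO label. On the scanner arrays 0 and 1 were (Gzmb 1.00, KO-labelled). They summed to 4.39, 5.30, 4.35 and 4.42 in the table (1.09, 1.37, 1.01 and 1.096 without Kit) and to 4.82, 4.999, 5.08 and 4.27 on the scanner arrays (3.83, 4.03, 4.07 and 3.54 without Cpa3). Ms4a2 was not above background on any array of either source. Mcpt8 was not on the scanner WT-labelled control, nor Mcpt1 on the KO-labelled control of the table. The part of these cells in the members' differences was not tested.

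The 5 members above background on all 4 arrays of both sources had their lower mean level in the scanner files, with the sources normalised separately. Scanner minus table, the difference was -5.94 for Ear1, -5.69 for Ear2, -3.30 for Cebpe, -1.46 for Il5ra and -1.11 for Ear6. No size is given for Prg2, Prg3 and Epx, which had arrays at background. The scanner level was also the lower for 13 of 15 alveolar macrophage, 9 of 9 B cell and 11 of 12 growth and recruitment genes. The same held for 7 of 9 other Ear and RNase A family genes and 8 of 12 lineage factors. Lower too were 9 of 14 other genes of mature eosinophils and 8 of 15 neutrophil and immature myeloid granule genes, but 4 of 13 mast cell and basophil genes. These counts include genes at background, and the share over all genes was not computed.

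Genes with the pattern most like each member were sought by the root mean square distance of log2 levels centred on the gene, over the 4 arrays, among genes above background on all of them. Clone, accession and predicted names were left out. So were olfactory and vomeronasal receptors, immunoglobulin chains and symbols that open with a capital letter and a digit. The totals and counts that follow are of the genes left. In the table, of 15867 genes, the nearest to Prg2 were Gcnt3 (0.23), Pdcd1 (0.44) and Tnfsf11 (0.45), and the nearest to Cebpe were Mrgprg (0.10), Fam3b (0.14) and Mug1 (0.15). Those of Ear6 were Rnase1 (0.025), Cdc20b (0.050) and Ccdc87 (0.065). Flatter members had many equals: 249 genes lay within 0.1 of Ear1, 176 of Ear2, 120 of Il5ra and 2441 of Prg3. Their nearest were Ahsg, Adamts6 and Bard1 for Ear1, Gins2, Gab3 and Ppnr for Ear2, Cyp2c55, Pcdhga10 and Naip7 for Il5ra, and Etv4, Tes and Rrbp1 for Prg3. Of 15683 genes in the scanner files, Ear2 had Insm2, Zfp389 and then Rnase2a (0.030) as its nearest. There the nearest were Irs1, Cd72 and Gpm6a for Ear1, Otud1, Tmem245 and Pgap1 for Il5ra, Ptgds, Olfm1 and Plekho2 for Cebpe, and Cenpb, Myl6 and Top3a for Ear6. As many as 4537 genes lay within 0.1 of Ear6. With 4 points per gene, such likeness is common and is given as a description.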

How the data were processed

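Gene expression was measured in 4 pooled lung RNAs (200 ng labelled, per the labels) on 1-colour Agilent arrays. Scanner values are, per the file headers, linear spot intensity (processed signal) from Agilent Feature Extraction 11.5.1.1, not normalised between arrays, with probe positions on mm9. The value table deposited by the authors gives 1 linear signal for each probe by steps that no label or header states; each column has its 75th percentile at 1.00. Groups were taken from the sample titles.

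Control spots, 20 uneven probes and probes without a gene were left out; a gene is its probe with the highest mean. Scanner intensity was scaled to the 75th percentile of each array and the deposited table signal kept; both were put on the log2 scale with no pseudocount. Background was the Agilent flag in the scanner files and 5 times the median of 153 negative controls in the table. Above background were 79.2 to 81.9% (scanner) and 79.8 to 82.1% (table) of spots; no non-control spot was saturated. Where 1 array was at background, the fold is a bound ("at least"), set against the higher of the probe's own level and the lowest level above background on that array. The single array per group limits the precision. limma 3.58.1 (R 4.3.3) was fitted to all genes per source with Benjamini-Hochberg adjustment and tested on simulated data.

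The members, all of them named, and the gene lists were chosen with earlier results of these data known. Other genes named are the 3 nearest in pattern to each member above background on all 4 arrays, the targeted gene Pla2g3 and lung markers. Genes of the eosinophil, Ear family and other cell lists are also named, but not every one with a large difference. Alternatives were the normalisation, background correction, filter, probe rule and fold.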

Additional observations from a re-analysis of the deposited data

Results flagged for a closer look

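Prg2 in the value table differed in its challenge difference between the genotype labels by 2.68 log2 units. The WT-labelled pair gave -0.02, close to no change, and the KO-labelled pair 2.66. The value rests on the KO-labelled control array. With 1 array per group this difference was not tested.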

How the results depend on the processing

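Counts of members past the fold moved as follows. In the scanner files the challenge count of the WT-labelled pair (1) became 0 where both arrays had to be above background, at 3-fold, and with normexp and quantile normalisation, and 2 at 1.5-fold and with no filter. The KO-labelled count (1) became 0 with quantile normalisation, median scaling, normexp or 3-fold, and 2 at 1.5-fold. The genotype count of the controls (0) became 2 at 1.5-fold, and that of the challenged arrays (1) became 0 with both arrays above background, normexp, 3-fold or a limit of 3 spot errors, and 2 at 1.5-fold. In the table the WT-labelled challenge count (1) became 0 at 3-fold, the KO-labelled one (3) became 7 at 1.5-fold, the control genotype count (2) became 1 at 3-fold or with both arrays above background, and the challenged one (3) became 1 at 3-fold. The other settings left these counts within 1.5 times. No member's called difference changed sign under the settings run, and the limma count of members stayed 0. The largest shift of the all-gene median under another scaling was 0.059.

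No paired analysis was possible because each group had 1 array. For the same reason, leaving out an array was not run. The depth limit falls on Prg2, Prg3 and Epx, which were dim or at background in the scanner files, and on Prg3 and Epx in the table.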
